A study of Mus musculus with 4 samples.

Results

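The immediate early response genes Fos, Jun, Junb, Jund, Egr1, Ier2, Ier3, Atf3, Myc and Klf6 were followed in the livers of control and HuR hKO mice. The members were found by matching the Ensembl identifier of each row of the gene count table to these symbols, and 10 of 10 were found among 46603 identifiers. HuR is the RNA-binding protein encoded by Elavl1. All 4 mice were male C57BL/6 J animals that carried floxed HuR alleles (HuR flox/flox), and their age is not given in the sources used here. By the labels, the 2 control mice, mice 1 and 2, received AAV8-TBGP-GFP by tail vein, whereas the 2 HuR hKO mice, mice 3 and 4, received AAV8-TBGP-Cre by the same route. Both groups ate a Western diet and drank sugar water (WDSW) over 4 weeks. In this model the thyroxine-binding globulin promoter drives Cre in hepatocytes, so the other liver cells are meant to keep HuR, and RNA came from liver without separation of cell types. Fewer cells of a type and less RNA per cell therefore cannot be told apart.

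Immediate early genes are transcribed within minutes of a growth factor, cytokine or stress signal without new protein synthesis, mostly through MAP kinase cascades that act on serum response factor, CREB and the Jun proteins already present. Jun and Fos proteins pair as AP-1, and Egr1, Klf6, Atf3 and Myc are further DNA-binding factors. Ier2 encodes a nuclear protein, and Ier3, although counted with these factors, encodes a membrane-associated regulator of cell survival and is not a DNA-binding factor. In the liver these genes are known for their rise after partial hepatectomy, injury and tissue handling. Most of their messages are short-lived, and AU-rich stretches in the 3′ UTR, built on the pentamer ATTTA, are classical binding sites of HuR and of decay factors.

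Since the protein targeted in the HuR hKO mice binds AU-rich stretches, the 3′ UTR of the principal transcript of each member (GENCODE M21, GRCm38) was searched for ATTTA on the sense strand, with overlapping matches counted. The pentamer was in 90.0% of the 10 members and in 67.3% of the 11922 tested genes with an annotated 3′ UTR. Ier2 held none. Ier3 held 5 in 613 bases, a density of 8.157 per kb that 1.58% of tested genes reached. The values for Fos were 4.908 per kb, which 6.6% of tested genes reached, and for Myc 4.525 per kb, which 8.21% reached. Klf6 had the largest number, 7, in a 3′ UTR of 3111 bases. The nonamer TTATTTATT was found only in Fos among the members, and 7.21% of tested genes held it. The median density was 2.89 per kb over the members and 1.27 per kb over the tested genes. These are matches of letters, and whether HuR bound them was not measured here. A 30-base site around the pentamer is shown for 8 members, 5′ to 3′, with ATTTA in capitals, because it is the feature through which the targeted protein is known to recognise such messages.
Fos: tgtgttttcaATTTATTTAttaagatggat
Myc: taacagatttgtATTTAattgtttttttaa
Ier3: taattaatATTTAtgtATTTAtgtatatcc
Jun: atcATTTAtaatcataggaaagATTTAgta
Junb: atatatttgtgtATTTAacagggaggggag
Jund: cgattccgccctATTTAtgtttctactcgg
Atf3: accaattccaggATTTAggccttatcatcc
Klf6: tgtataagctgtATTTAcaaatcgcagtgg

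The libraries held between 13032095 and 19715577 counts on genes. Levels are counts divided by the library size and scaled to CPM, with sizes corrected by TMM factors of 0.957 to 1.04, and the groups were compared with edgeR's quasi-likelihood test over the 13001 genes that passed the filter on low counts. All 10 members passed that filter. A count of 3 was worth between 0.159 and 0.226 CPM. Mitochondrial genes took between 6.57% and 7.64% of a library. Elavl1, the targeted gene, had 377 and 347 counts in control mice 1 and 2 and 541 and 648 counts in mice 3 and 4. Its level was 27.1 ± 1.74 CPM (SD, n = 2) in controls and 36.1 ± 2.36 CPM (SD, n = 2) in mice 3 and 4, so the targeted gene went against the label. The log2 fold change of Elavl1 was 0.41 (SE 0.135, adjusted p = 0.545), and it lay between 0.325 and 0.477 when any mouse was left out. The gene counts do not show which exons were read, so they cannot check the floxed part alone, and 2.0% of the exon bases of Elavl1 are shared with Ccl25 on the other strand, which had at most 57 counts. All directions are those of the labels, and if the labels were exchanged each of them would turn.

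No member passed the test of HuR hKO against control after adjustment. With edgeR's quasi-likelihood test, 0 of 10 members had an adjusted p-value under 0.05, and 3 of all genes tested, or 0.0231%, did. The same count of 0 came from edgeR's exact test, the DESeq2 Wald test and limma-voom. A fold change of at least 1.8 with an unadjusted p-value under 0.05 was met by 0 of 10 members and by 2.12% of all genes. That pair of thresholds follows the study's own choice for RNA-seq. At an unadjusted p-value under 0.05, 2 members, Junb and Klf6, were higher in the libraries labelled HuR hKO, against 4.04% of all genes, and 0 members were lower, against 3.39%. The DESeq2 Wald test gave 1 member, Klf6, at that level. The fitted values were above 0 for 5 members and below 0 for 5, with a median log2 fold change of 0.0444 over the members and 0.00197 over all genes tested. Groups did not overlap for 5 members. These were higher for Jun, Junb and Klf6, against 19.3% of all genes, and lower for Egr1 and Ier3, against 18.8% of all genes. With 2 mice per group, the smallest p that an exact two-sided permutation test of a single value can give is 0.333, so no such test was used for single genes. The labels name separate mice. The p-values set each group difference against the spread between mice of a group, which edgeR estimates with the help of all genes tested.

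**Figure D1:**
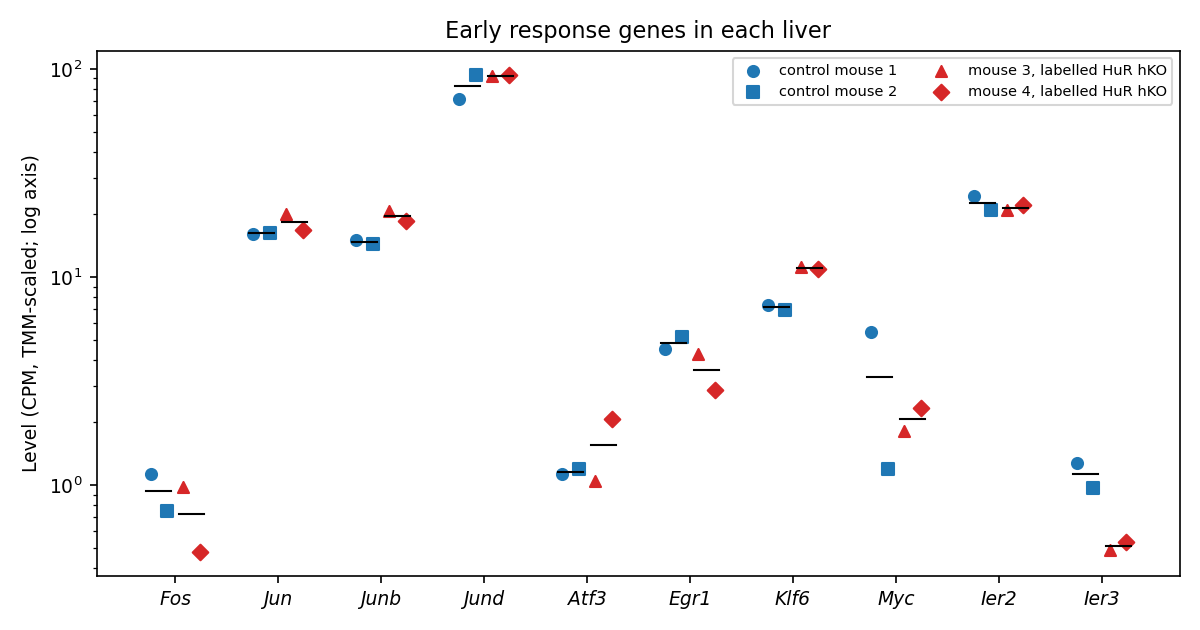
Level of each member in each liver, in CPM on TMM-scaled library sizes (log axis); points are single mice and bars are group means of 2 mice. Klf6 and Junb were higher in both libraries labelled HuR hKO, Egr1 and Ier3 were lower in both, and the 2 control mice stood apart for Myc.

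Among the Jun proteins, the DNA-binding AP-1 subunits that can pair with each other or with Fos proteins, Junb had the clearest difference. Junb, which often restrains the growth-promoting action of Jun, measured 15.1 and 14.3 CPM in control mice 1 and 2 and 20.7 and 18.6 CPM in mice 3 and 4. Mice 3 and 4 exceeded each control. The mean was 14.7 ± 0.507 CPM (SD, n = 2) in controls and 19.7 ± 1.48 CPM (SD, n = 2) in mice 3 and 4, a 1.34-fold difference. Its log2 fold change was 0.42 (SE 0.148, 95% interval 0.0789 to 0.760, unadjusted p = 0.0217, adjusted p = 0.574). Over 14 alternatives it lay between 0.305 and 0.725, and without mouse 3 or without control mouse 2 it no longer had an unadjusted p-value under 0.05. Junb lies at chr8:84974484-84978718 on the minus strand, and 173 of its exon bases, or 7.5%, are shared with exons of Prdx2 on the other strand. Prdx2 had 1522 and 1942 counts in controls and 2071 and 3083 counts in mice 3 and 4. Whether the counting used strand is not given in the sources used here, so the share of Prdx2 reads in the Junb counts cannot be told apart.

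Jun, the classical target of the JNK kinases, measured 16.2 CPM in each of the 2 control mice, 20.02 CPM in mouse 3 and 16.8 CPM in mouse 4. The groups did not overlap, but mouse 4 lay closer to the controls than to mouse 3. The difference was 0.18 on the log2 scale (SE 0.155, 95% interval -0.172 to 0.540, adjusted p = 0.836), and 0.0388 without mouse 3. Jund, the Jun protein that resting cells already hold, measured 71.3 and 93.9 CPM in control mice 1 and 2 and 92.4 and 93.5 CPM in mice 3 and 4. Control mouse 1 was low and the other three livers were alike, so the groups overlapped. Its log2 fold change was 0.17 (SE 0.156, 95% interval -0.189 to 0.528, adjusted p = 0.848), and without control mouse 1 it was -0.028. Jun lies at chr4:95049034-95052222 on the minus strand and shares 7.3% of its exon bases with the antisense gene Junos, which had at most 7 counts. Jund, at chr8:70698949-70700616 on the plus strand, shares 52.6% of its exon bases with the antisense gene Gm11175, which had between 57 and 95 counts against 948 to 1761 for Jund.

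Fos, the partner that AP-1 gains after a stimulus, was near the limit of these libraries. It had 15 and 10 counts in control mice 1 and 2 and 14 and 9 counts in mice 3 and 4, or 1.13, 0.747, 0.977 and 0.478 CPM. The groups overlapped, and the libraries labelled HuR hKO differed from each other 2.04-fold. The log2 fold change was -0.40 (SE 0.569, 95% interval -1.71 to 0.909, adjusted p = 0.907). An interval this wide reaches past the 1.8-fold threshold in both directions, so a difference of that size was not excluded. Fos lies at chr12:85473890-85477273 on the plus strand.

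To compare levels between genes, CPM was divided by the length of each gene's exon model. On this scale of CPM per kb, Jund had the highest mean level of the members, 52.6, above 93.0% of tested genes, and Fos the lowest, 0.354, above 9.3% of them. Between them the means were 14.5 for Ier2, 7.47 for Junb, 5.43 for Jun, 2.08 for Klf6, 0.990 for Myc, 0.936 for Egr1, 0.723 for Ier3 and 0.631 for Atf3, beside a median of 3.05 over tested genes. The ranges over the 4 livers of Jund and Ier2 met those of no neighbour in this order. Junb and Jun overlapped slightly, Klf6 overlapped Myc through control mouse 1, and the values of Myc, Egr1, Ier3 and Atf3 overlapped from each to the next. Fos stayed just below the lowest value of Atf3, but its range overlapped those of Ier3 and Myc. Its value in control mouse 1, 0.480, lay above Ier3 in mice 3 and 4, 0.432 and 0.469, and above Myc in control mouse 2, 0.440.

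The AP-1 genes of these livers were dominated by Jun family messages. Jun, Junb and Jund together came to 54.4 and 67.6 CPM per kb in control mice 1 and 2 and 70.7 and 69.4 in mice 3 and 4. Fos, Fosb, Fosl1 and Fosl2 together came to 1.48 and 1.14 in controls and 1.24 and 0.904 in mice 3 and 4. The ratio of the sums was 36.6 and 59.1 in controls and 56.9 and 76.8 in the libraries labelled HuR hKO, and the groups overlapped. Jund made up between 78.4% and 83.3% of the Jun family sum. Fosl2, a Fos family member that lacks the strong activation domain of Fos, made up between 60.2% and 70.1% of the Fos family sum. Fosl1 was at 0 in control mouse 2 and in mouse 3. The share of Junb in the Jun family lay between 9.21% in control mouse 2 and 12.7% in mouse 3.

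**Figure D2:**
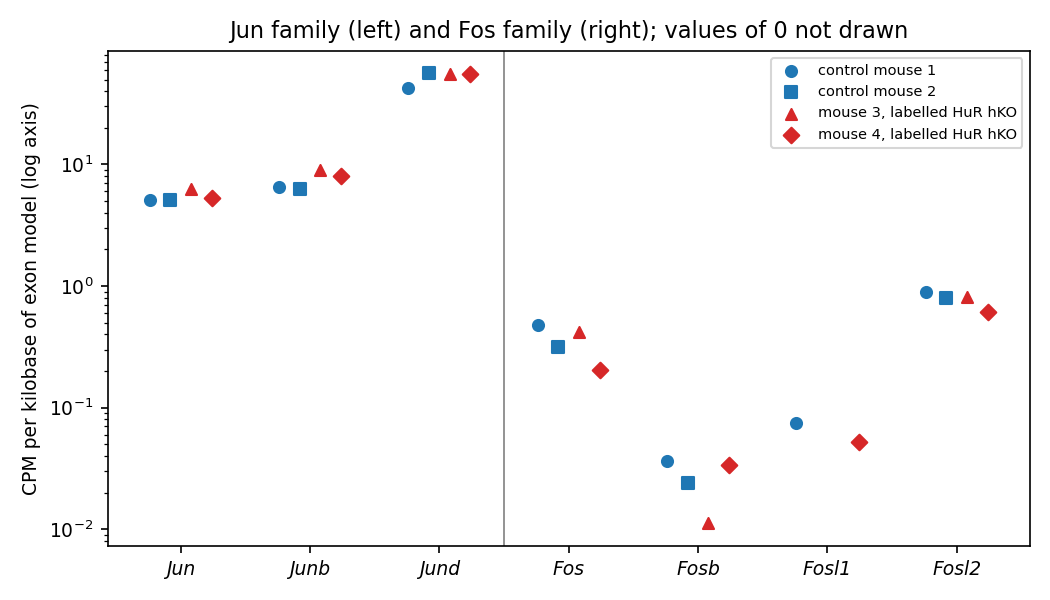
Level of each Jun family (left) and Fos family (right) gene in each liver, in CPM per kb of exon model (log axis); points are single mice and values of 0 are not drawn. Jund lies above the other genes in every library, between 42.8 and 56.3 CPM per kb, and the Fos family genes lie below 1.

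Klf6, a zinc finger factor of the Krüppel-like family, had the lowest p-value of the members. It measured 7.38 and 6.94 CPM in control mice 1 and 2 and 11.2 and 10.9 CPM in mice 3 and 4. Both libraries labelled HuR hKO lay above both controls, and the mice within a group differed by at most 1.06-fold. The means were 7.16 ± 0.305 CPM (SD, n = 2) in controls and 11.1 ± 0.209 CPM (SD, n = 2) in mice 3 and 4, a 1.55-fold difference. Its log2 fold change was 0.63 (SE 0.178, 95% interval 0.22 to 1.04, unadjusted p = 0.00747, adjusted p = 0.444). Over 14 alternatives the value lay between 0.588 and 0.941, with adjusted p-values between 0.0962 and 0.999. Klf6 lies at chr13:5861482-5870394 on the plus strand.

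Klf6 and Junb were the pair of members with the most similar profiles, with a root mean square distance of 0.103 between their centred log2 CPM over the 4 libraries. Both were higher in mice 3 and 4, so a small distance over the same 4 values is no further evidence. Whether the 2 genes share regulation was not tested. The next pairs were Jun and Junb at 0.123 and Jun and Jund at 0.167. The promoters of Klf6 and Junb are shown for this reason, as the 250 bases before the RefSeq start (GRCm38.p6), with GC boxes (GGGCGG on either strand) in capitals. The stretch of Klf6 is chr13:5861239-5861488 on the plus strand and that of Junb is chr8:84978749-84978998 on the minus strand.
Klf6: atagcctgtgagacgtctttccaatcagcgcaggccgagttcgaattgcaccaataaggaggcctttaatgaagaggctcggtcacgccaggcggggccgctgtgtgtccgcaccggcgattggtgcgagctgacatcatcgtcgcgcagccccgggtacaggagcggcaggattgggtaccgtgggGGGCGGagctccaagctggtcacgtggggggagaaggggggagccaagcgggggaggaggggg
Junb: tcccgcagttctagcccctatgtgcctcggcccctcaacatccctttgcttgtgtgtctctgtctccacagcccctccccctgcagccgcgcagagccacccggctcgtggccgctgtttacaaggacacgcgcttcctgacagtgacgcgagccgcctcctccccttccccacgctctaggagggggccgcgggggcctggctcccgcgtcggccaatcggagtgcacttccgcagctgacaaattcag
In the window of 250 bases before and 50 after the start, RefSeq sequences were matched for 7 members, Atf3, Fos, Ier3, Jun, Junb, Jund and Klf6. The window of Jund, chr8:70697489-70697788, ends before the GENCODE gene model begins at base 70698949. It therefore does not describe the sequence at that gene start. GC boxes were found once each in Klf6, Fos, Ier3 and Jun and 5 times in Atf3, and 35.66% of the 32851 promoters of the table held one. The AP-1 site TGACTCA and the CRE site TGACGTCA, searched on both strands, and the CArG box of serum response factor were in none of the 7 windows, against 5.2%, 1.79% and 1.63% of all promoters. The TATA motif TATAAA, searched on the sense strand, was in Fos and Junb and in 8.32% of all promoters. In Junb it lies after the RefSeq start, outside the 250 bases shown. The GENCODE gene model of Junb begins at base 84978718, within the 50 bases after that RefSeq start. No match says only that these letters are not in this window.

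The summed markers of several cell types other than hepatocytes were higher in the libraries with higher Klf6 and Junb, by narrow margins for some. The summed level of 9 endothelial markers was 273.5 and 234.2 CPM in control mice 1 and 2 and 307.9 and 273.7 CPM in mice 3 and 4, and 9 of 9 were higher, with a median log2 fold change of 0.211. The summed level of 10 Kupffer cell markers was 255.1 and 260.3 CPM in controls and 290.3 and 274.0 CPM in mice 3 and 4, and 7 of 10 were higher. For monocyte-derived macrophages, 5 of 6 tested markers were higher, and the 8 markers summed to 34.99 and 40.84 CPM in controls and 56.65 and 43.8 CPM in mice 3 and 4. Of these, Trem2, with 4 and 2 counts in controls and 12 and 15 counts in mice 3 and 4, was past the fold threshold (log2 fold change 1.82, adjusted p = 0.574), and Cd9 was at 0.63. Trem2 passed the filter on low counts only through mice 3 and 4, where it was higher. Its place past the threshold is therefore no support for a difference in these cells. Erythroid markers summed to 363.1 and 450.4 CPM in controls and 488.3 and 710.6 CPM in mice 3 and 4. All 5 were higher, with a median of 0.517 on the log2 scale. Most of the 5 are globin genes, so they are not separate readings. At an unadjusted p-value under 0.05 by edgeR's quasi-likelihood test, 4.04% of all genes were higher. So were 3 of 5 tested erythroid, 2 of 10 stellate cell, 2 of 6 macrophage and 1 of 4 cholangiocyte markers. Trem2 was 1 of the 2 macrophage markers, and the limit given for it holds here too. In the hepatocyte, Kupffer cell, endothelial, B cell, T and NK cell and neutrophil lists, 0 tested markers were higher at that level. Stellate cell markers summed to 244.2 and 229.3 CPM in controls and to 248.5 and 314.0 CPM in mice 3 and 4. None of these markers had an adjusted p-value under 0.05, and their part in the values of Klf6 and Junb was not tested. The 8 neutrophil markers summed to 2.26 and 3.29 CPM in controls and 2.16 and 1.54 CPM in mice 3 and 4, with the defining marker Ly6g at 0 in all 4 libraries, and Csf3r, the only one tested, was at -0.71 on the log2 scale. The T and NK cell markers summed to at most 5.45 CPM. Hepatocyte markers, of which 9 of 10 were found, summed to between 67320 and 74900 CPM, so the labelled liver tissue was seen in every library.

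Egr1, a zinc finger factor induced through serum response factor and MAP kinase signaling, was lower in both libraries labelled HuR hKO. It measured 4.51 and 5.15 CPM in control mice 1 and 2 and 4.26 and 2.87 CPM in mice 3 and 4. Mouse 3 lay close to control mouse 1, and mouse 4 was the lowest. The log2 fold change was -0.45 (SE 0.286, 95% interval -1.11 to 0.206, adjusted p = 0.766). It was -0.183 without mouse 4 and -0.769 without mouse 3. Atf3, a stress-induced factor of the ATF/CREB family, had 15 and 16 counts in controls and 15 and 39 counts in mice 3 and 4, or 1.13, 1.20, 1.05 and 2.07 CPM. Only mouse 4 stood above the others, so the groups overlapped. Its log2 fold change was 0.44 (SE 0.470, 95% interval -0.634 to 1.52, adjusted p = 0.869), and without mouse 4 it was -0.149. Atf3 lies at chr1:191170296-191218039 on the minus strand.

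Myc, which drives ribosome biogenesis and growth genes with its partner Max, turned on 1 control liver. It had 72 counts in control mouse 1, 16 in control mouse 2, 26 in mouse 3 and 44 in mouse 4, or 5.42, 1.20, 1.81 and 2.34 CPM. The controls lay on both sides of the libraries labelled HuR hKO and differed from each other 4.54-fold, a gap that 1.01% of tested genes reached. The log2 fold change was -0.66 (SE 0.595, 95% interval -2.03 to 0.709, adjusted p = 0.845). It was 0.788 without control mouse 1 and -1.37 without control mouse 2. The 7 cholangiocyte markers summed to 52.9 and 27.6 CPM in control mice 1 and 2 and to 39.6 and 49.9 CPM in mice 3 and 4, so mouse 4 nearly matched control mouse 1. Spp1 made up most of these sums. Without it, a split made after the values were seen, the other 6 markers summed to 21.4 CPM in control mouse 1 and to 5.23, 4.81 and 8.02 CPM in control mouse 2, mouse 3 and mouse 4. Krt19, the defining cytokeratin of bile ducts, had 162, 5, 7 and 34 counts in the same order. It was also picked after its values were seen, and it made up much of the reduced sum in control mouse 1. The part of these cells in the Myc value was not tested. Myc lies at chr15:61985391-61990374 on the plus strand.

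Ier2 was nearly level, at 24.6 and 20.9 CPM in control mice 1 and 2 and 20.9 and 22.1 CPM in mice 3 and 4. The groups overlapped, with control mouse 1 the highest. Its log2 fold change was -0.08 (SE 0.146, 95% interval -0.417 to 0.255, adjusted p = 0.929), so the interval leaves out a 1.8-fold difference in either direction. Ier2 lies at chr8:84661331-84662852 on the minus strand. Ier3, the member with the densest ATTTA, had 17 and 13 counts in controls and 7 and 10 counts in mice 3 and 4, or 1.28, 0.971, 0.488 and 0.531 CPM. Both libraries labelled HuR hKO were below both controls, with a fitted fold of 0.459. The log2 fold change of Ier3 was the lowest of the members, -1.12 (SE 0.512, 95% interval -2.30 to 0.0524, unadjusted p = 0.0587, adjusted p = 0.674). It was below 0 in all 13 alternatives in which the gene was tested, from -1.31 to -0.81, and it rests on at most 17 counts in a library. Ier3 passed the filter on low counts only through the control libraries, where it was higher. The alternatives reuse the same counts, so they are no separate support for its direction. Ier3 lies at chr17:35821684-35822923 on the plus strand.

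**Figure D3:**
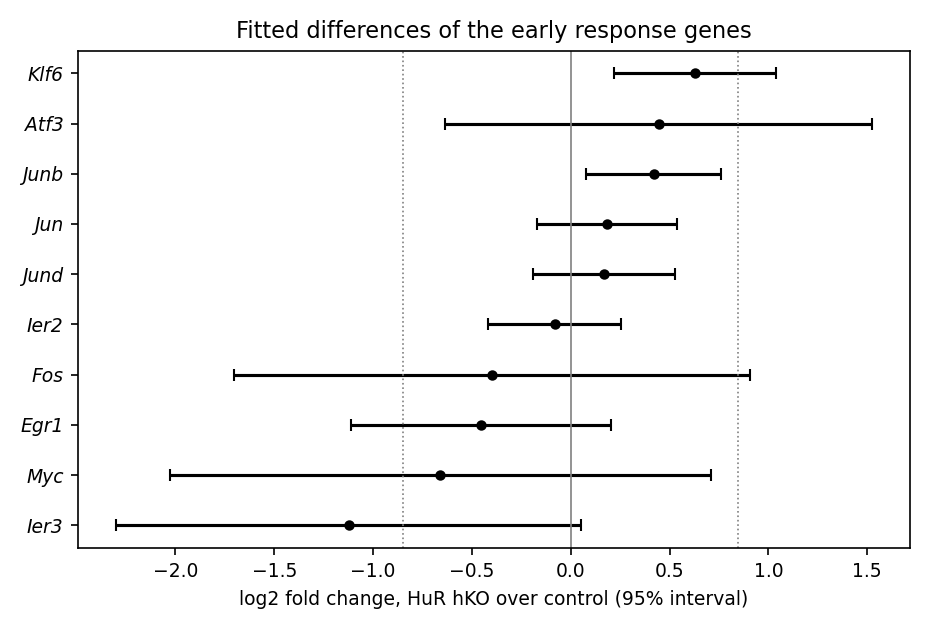
Fitted log2 fold change of each member, libraries labelled HuR hKO over control, with its 95% interval from edgeR's quasi-likelihood fit (2 mice per group); dotted lines mark a 1.8-fold difference. Only the intervals of Klf6 and Junb leave out 0, and those of Fos, Atf3, Myc and Ier3 are the widest.

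The genes around these factors were read from 9 lists of 162 genes, of which 145 were tested. The fitted value lay above 0 for 72 of them and below 0 for 73, and the median was -0.00136 on the log2 scale, while 50.3% of all genes tested lay above 0. None had an adjusted p-value under 0.05 by edgeR's quasi-likelihood test, and the lowest was 0.417. At an unadjusted p-value under 0.05, 4 were higher and 4 were lower, or 5.52% of those tested with both directions together. Of all genes, 4.04% were higher and 3.39% lower at that level, shares that have to be added before they are set beside 5.52%. Groups did not overlap for 24 genes that were higher and for 24 that were lower, or 16.6% each way, against 19.3% and 18.8% of all genes. A fold change of at least 1.8 with an unadjusted p-value under 0.05 was met by Mycn, which was higher, and by Mrtfa, which was lower, or 1.38% of those tested against 2.12% of all genes. By these counts the lists did not stand above all genes.

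Mycn, the close relative of Myc, had 23 and 33 counts in control mice 1 and 2 and 83 and 76 counts in mice 3 and 4. The groups did not overlap. Its level was 1.73 and 2.46 CPM in controls and 5.79 and 4.04 CPM in mice 3 and 4, and the log2 fold change was 1.22 (SE 0.328, adjusted p = 0.417). Leaving out any mouse gave values between 0.924 and 1.49. Mrtfa, a cofactor of serum response factor that reads the state of actin, had 128 and 118 counts in controls and 89 and 66 counts in mice 3 and 4. The log2 fold change of Mrtfa was -0.94 (SE 0.282, adjusted p = 0.489), and with a mouse left out it lay between -1.41 and -0.569. Mrtfb, its paralog, was at -0.35 on the log2 scale with groups apart.

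Other early response transcription factors came to 8 higher and 6 lower of 14 tested, with a median log2 fold change of 0.138. Nr4a2, an orphan nuclear receptor, measured 0.828 and 0.448 CPM in controls and 1.74 and 0.902 CPM in mice 3 and 4, and its log2 fold change was 1.02 (SE 0.573, adjusted p = 0.729). Klf10 was at 0.40, and Cebpb, a leucine zipper factor of the acute phase response, at -0.25, both on the log2 scale. Feedback inhibitors and mRNA decay factors came to 14 higher and 12 lower of 26. Btg2, an antiproliferative gene that recruits deadenylases, measured 7.07 and 8.88 CPM in controls and 10.4 and 13.1 CPM in mice 3 and 4, with a log2 fold change of 0.56 (SE 0.206, adjusted p = 0.580). Spry2, a brake on receptor tyrosine kinases, was at -0.51 and the phosphatase gene Dusp2 at 0.33, neither past an adjusted p-value of 0.05. Dusp2 had 9 counts in each control mouse and 13 and 15 counts in mice 3 and 4. It passed the filter on low counts only through mice 3 and 4, where it was higher. Its place among the genes with groups apart is therefore no support for a difference.

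Secreted and cytoplasmic early response genes came to 9 higher and 6 lower of 15. Sgk1, a serum- and glucocorticoid-induced kinase, had 184 and 213 counts in controls and 333 and 362 counts in mice 3 and 4, and its log2 fold change was 0.51 (SE 0.164, adjusted p = 0.530). The matricellular gene Ccn2 was at 0.64 and Igfbp1, a liver-secreted binding protein of insulin-like growth factors, at 0.55 on the log2 scale. For Igfbp1 mouse 3 lay level with control mouse 2, and the value was 0.0517 without mouse 4. For Ccn2 it was 0.259 without control mouse 2 and 1.14 without control mouse 1. Upstream receptors, kinases and factors came to 11 higher and 14 lower of 25. Mapk8, which encodes the JNK1 kinase of Jun, measured 16.6 and 18.1 CPM in controls and 13.1 and 11.2 CPM in mice 3 and 4, with a log2 fold change of -0.52 (SE 0.160, adjusted p = 0.510).

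AP-1 and ATF partners came to 7 higher and 6 lower of 13, with Nfil3 at -0.30, Mafk at 0.22 and Atf2 at -0.15 on the log2 scale. Among MYC partners and competitors, 5 were higher and 6 lower of 11. Mga, a repressor that pairs with Max, was at 0.41 and Mlxip, a glucose-responsive relative, at -0.30. Known AP-1 target genes came to 7 higher and 2 lower of 9, with a median log2 fold change of 0.136. Spp1, which encodes osteopontin and is itself a cholangiocyte marker, measured 31.5 and 22.3 CPM in controls and 34.8 and 41.9 CPM in mice 3 and 4, with a log2 fold change of 0.51 (SE 0.188, adjusted p = 0.579). Vim and Krt8, which encode intermediate filament proteins, were at 0.15 and 0.14. Known MYC target genes came to 5 higher and 15 lower of 20, with a median of -0.0809. Their largest differences with groups apart were those of the nucleolar genes Nop56, -0.33, and Nolc1, -0.29, and of the spermidine synthase gene Srm, -0.28, none past an adjusted p-value of 0.05.

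Clock genes are listed because several early response genes vary with the time of day. Of 12 tested, 6 lay above 0 and 6 below, and their median was -0.00816 on the log2 scale. Clock was at -0.40, Ciart at 0.26 and the strongly rhythmic Dbp at 0.25 on the log2 scale. Dbp measured 197.4 and 258.6 CPM in controls and 275.1 and 266.0 CPM in mice 3 and 4. The lowest adjusted p-value of the list was 0.684.

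The median centred log2 CPM of the members was 0.0155 and -0.0823 in control mice 1 and 2 and 0.0627 and -0.00307 in mice 3 and 4. This median is taken over 5 members with values above 0 and 5 below, so its small size and the genes near it describe no single member. Of 11477 genes compared over the 4 libraries, those with profiles closest to it were Ppp4r3b, Sbf1, Lin7c, Smchd1 and Ppp2ca, at root mean square distances between 0.00656 and 0.0112 on the log2 scale. The members themselves did not share 1 order of the livers. The highest value was in control mouse 1 for 4 members, in control mouse 2 for 2, in mouse 3 for 3 and in mouse 4 for 1. Adjusted p-values of the members lay between 0.444 and 0.929, and SEs between 0.146 for Ier2 and 0.595 for Myc.

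**Figure D4:**
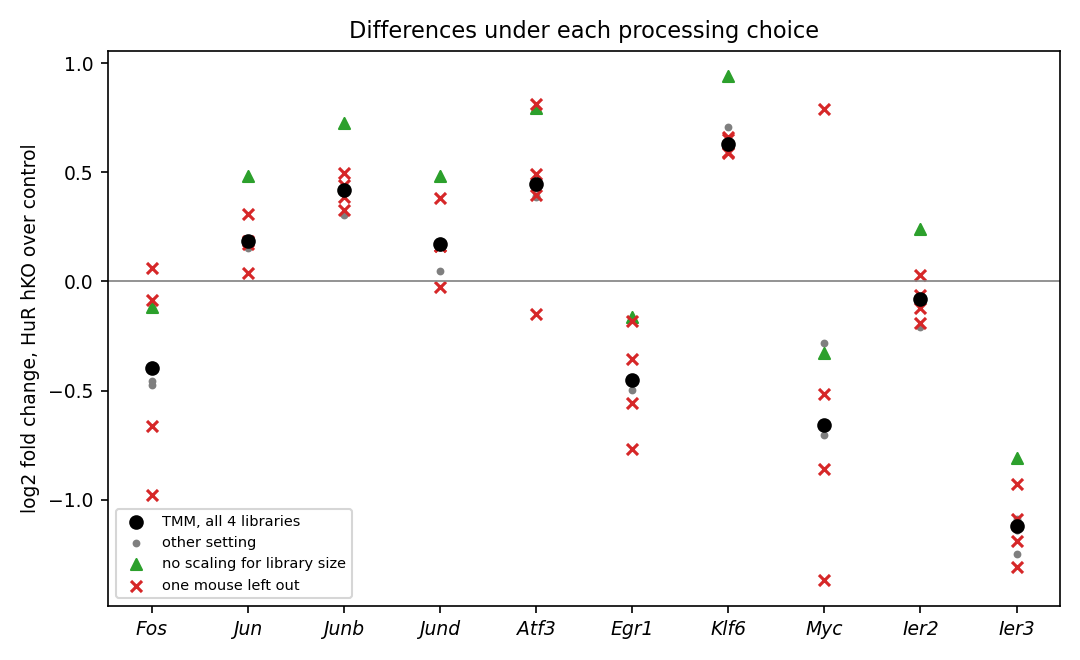
Log2 fold change of each member, libraries labelled HuR hKO over control, under the reported processing (black), other settings (grey), no scaling for library size (green triangles) and with 1 mouse left out (red crosses). Klf6 stays between 0.588 and 0.941, whereas Myc runs from -1.37 to 0.788.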

How the data were processed

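Liver RNA-seq of 4 mice was read from the table of gene counts. The authors deposited whole-number counts per Ensembl gene without normalization; the submitters' processing notes name RSEM and GRCm38, and the aligner, versions and use of strand are not given in the sources used here. All 4 columns were matched to mice by name. Symbols were matched for 46005 of 46603 identifiers.

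Genes were kept by edgeR's filter (minimum count 10, total 15) and tested with edgeR 4.0.16 (R 4.3.3) after TMM scaling, with Benjamini-Hochberg adjustment over 13001 genes. Limma 3.58.1 and DESeq2 1.42.0 gave alternatives, and python 3.11.15 with matplotlib 3.10.9 the tables and figures. The edgeR fit was also run on simulated counts with known changes, placed only in genes with an expected count above 50. Fos, Ier3, Atf3 and Myc lie below that count, so the simulation does not cover genes at their level. Its outcome is not reported here. Centred profiles used log2(CPM + 0.5).

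The members and lists were chosen with earlier results of these data known. Genes named were the members, Elavl1, in each pathway list any gene past a threshold and up to 3 with the largest difference and groups apart, and the 5 genes with the nearest profile and a mean log2 CPM of at least 1. Fosb, Fosl1, Fosl2, Junos, Prdx2, Gm11175, Krt19, Trem2, Cd9, Csf3r, Ly6g and other list members outside this rule were named after their values were seen. Count limits cover counting error only.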

Additional observations from a re-analysis of the deposited data

How the results depend on the processing

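No alternative gave a member an adjusted p-value under 0.05, in 14 settings, while the number of all genes called ran from 0 to 161 against 3 as reported. The number of members past the fold threshold was 0 as reported, 1 without scaling for library size (Klf6), 1 with offsets that correct each library for GC content and length (Ier3), a setting chosen after seeing the data, and 0 to 1 with a mouse left out (Myc, without control mouse 2). The median log2 fold change of the members was 0.0444 as reported, 0.361 without scaling, where that of all genes moved to 0.314, 0.167 with at least 10 counts in every library, where Fos and Ier3 were not tested and 8 members remained, and -0.0794 with the offsets. Leaving out a mouse gave medians between -0.0301 and 0.0995. Without scaling, which left the larger total of mouse 4 in the values, Ier2 was at 0.238, Cebpb at 0.088, Nfil3 at 0.00548, Atf2 at 0.167, Nolc1 at 0.0238 and Srm at 0.0392, each the other way, Mycn was at 1.5 with an adjusted p-value of 0.0134, and members with groups apart were 4 higher, against 44.8% of all genes, and 1 lower, against 2.37%. The direction turned with a mouse left out for Jund (-0.028 to 0.383), Myc (-1.37 to 0.788), Ier2 (-0.192 to 0.029), Fos (-0.977 to 0.0595), Atf3 (-0.149 to 0.812), Sbf1 (-0.00203 to 0.0857) and Smchd1 (-0.00762 to 0.102). Fos and Atf3 turned without mouse 4, and Jund, Myc and Ier2 without control mouse 1. With 1 mouse left in a group, that mouse is assumed to vary like the other group. Junb was past an unadjusted p-value of 0.05 in the reported fit but not with the DESeq2 Wald test, without mouse 3, without control mouse 2 or with the offsets. The cause of these shifts was not tested beyond what each setting changes. The mouse numbers are not shared between the groups. No paired analysis was possible because the groups compared share no replicate number. Counts under 20 limit Fos, Ier3 and, in 3 libraries, Atf3.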

Other observations

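A few list genes outside the naming rule, chosen after their values were seen, also differed widely between the control mice, with the higher value in control mouse 1 as for Myc. Plk3, a stress-responsive kinase gene, had 1135 and 404 counts in control mice 1 and 2 and 676 and 517 counts in mice 3 and 4. Acta2, the smooth muscle actin of activated stellate cells and vessel walls, had 275 and 60 counts in controls and 66 and 177 counts in mice 3 and 4. Gadd45g, a stress-induced growth arrest gene, had 308 and 99 counts in controls and 130 and 605 counts in mice 3 and 4, so the highest values fell in 1 mouse of each label. B cell markers summed to 5.27 CPM in control mouse 1 and to between 18.8 and 33.1 CPM in the other three livers.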
